A study of Mus musculus with 6 samples.

Results

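The tetraploid (4n) and diploid (2n) cardiomyocytes (CMs) of the mouse left ventricle at postnatal day 5 (P5) were compared gene by gene. A cell was taken as a CM when it held at least 1 UMI (unique molecular identifier, 1 captured RNA molecule) of each of Tnni3, Tnnt2, Actc1 and Tnnc1, which encode thin filament proteins of the cardiac sarcomere. This left 4413 of 4462 cells of P5-2n and 3654 of 3678 cells of P5-4n, in sum 8067 CMs of the 31156 cells of the series. The series holds droplet-based 3′ single-cell RNA sequencing of 2n- and 4n-CMs at embryonic day 16.5 (E16.5), P1 and P5, with 1 library for each of the 6 conditions. All mice were untreated C57BL/6J without a transgene named in the labels. Ventricular cells had been dissociated, fixed in methanol, stained for the CM marker MYH1 and with Hoechst for DNA, and sorted by DNA content, and cells from several independent sorts of pooled pups were joined before each library was made. A 4n gate holds mononuclear CMs that have replicated their DNA as well as CMs with a pair of diploid nuclei or with 1 tetraploid nucleus, and these cannot be told apart by the gate. Because each side is 1 library, no test between P5-4n and P5-2n was possible, and every interval below is a 95% interval of counting error only.

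Most mouse CMs leave the cell cycle in the first days after birth, when a last round of DNA replication and nuclear division without cell division leaves many of them binucleate. Replication is prepared in G1 by licensing, in which CDC6 and CDT1 load the MCM helicase onto origins, and the transcription of these genes by E2F factors peaks near the entry into S phase. The genes of mitosis, such as those of B-type cyclins, Polo-like kinase, kinetochore and midbody proteins, are transcribed later, in G2 and M phase.

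P5-2n CMs held 17924609 UMIs with a median of 3759 per CM, and P5-4n CMs held 18400737 UMIs with a median of 4658. The medians of the CMs of the other 4 libraries lay between 1831 and 3187. Levels are in CPM, the UMIs of a gene per 1000000 UMIs of all CMs in that library, so that a difference in RNA content per CM does not enter the ratio. A list of 8 CM markers, among them the 4 genes that chose the CMs and whose detection the choice therefore fixed, summed to 39908 CPM in P5-2n CMs and 37759 CPM in P5-4n CMs. P5-2n and P5-4n shared 31 cell barcodes, within the 17 to 62 shared by the 15 pairs of libraries.

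Of the 9349 genes with at least 100 UMIs in both P5 libraries together, 8817 (94.3%) differed by less than 1.5-fold. A CPM at least 1.5-fold higher in P5-4n was found for 359 genes (3.84%), and one at least 1.5-fold lower for 173 genes (1.85%). The median log2 ratio of 4n over 2n was 0.02, and 175 genes were at least 2-fold higher and 38 at least 2-fold lower. Genes of mitosis made up 85 of the 359 higher genes and none of the 173 lower genes, whereas 28 of the 173 lower genes and 2 of the 359 higher genes were of DNA replication.

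**Figure D1:**
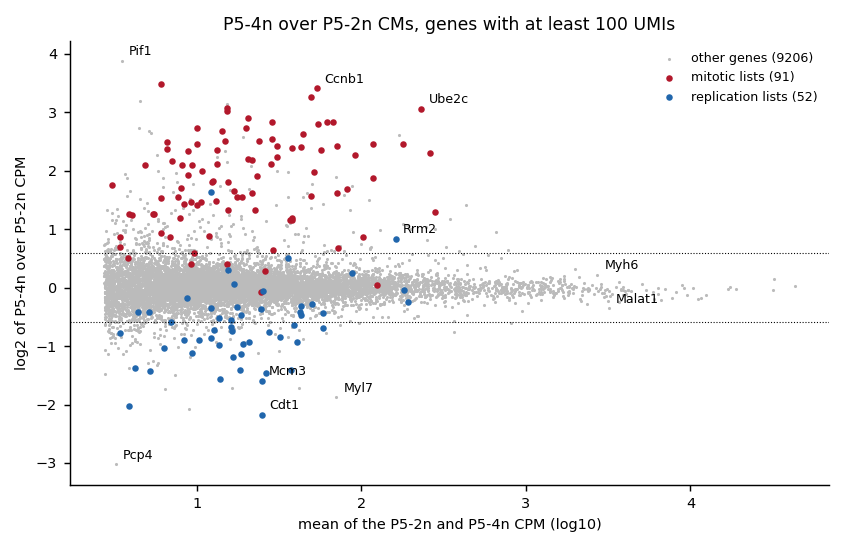
Each point is 1 of the 9349 genes with at least 100 UMIs at P5, with the mean of its P5-2n and P5-4n CPM on the x axis (log10) and the log2 ratio of P5-4n over P5-2n CPM on the y axis, and dotted lines mark a fold of 1.5. Genes of the mitotic lists (red, 91 genes) lie above the bulk and many genes of the replication lists (blue, 52 genes) below it.

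The mitotic genes were higher in P5-4n across all of their roles. The lists of mitotic kinases and cyclins, spindle checkpoint and anaphase, kinetochore, spindle, and cytokinesis held 94 genes after 3 genes with broad uses outside mitosis (Stmn1, Rhoa and Sept7) were set aside, of which 91 had at least 100 UMIs. Counts of a single list below include those 3 genes. Among these, 85 were past 1.5-fold higher in P5-4n, against 3.84% of all genes, and none was past it lower, with a median log2 ratio of 1.88. Together they went from 1463 CPM (1445 to 1481) in P5-2n to 5255 CPM (5221 to 5288) in P5-4n, a ratio of 3.59-fold. The 6 genes within 1.5-fold were Pttg1, Cenph, Cenpk, Cenpq, Oip5 and Mical3.

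Ccnb1, which encodes cyclin B1, the partner of CDK1 at the entry into mitosis, had 166 UMIs (9.26 CPM) in P5-2n and 1810 UMIs (98.4 CPM) in P5-4n. Its CPM was 10.6-fold higher in 4n, a log2 ratio of 3.41 (3.18 to 3.65). The gene (ENSMUSG00000041431) lies at chr13:100778650-100786570 on the minus strand of GRCm38. All 19 of the 19 measured genes of the kinase and cyclin list were past 1.5-fold higher, against 3.84% of all genes. Ccnb2, a second B-type cyclin, had 13.7 CPM in P5-2n CMs and 95.6 CPM in P5-4n CMs. Plk1, Polo-like kinase 1, had 4.85 and 36.2 CPM, and Nek2, a centrosome kinase, 3.24 and 27.1 CPM. Cdk1 itself, expressed already in S phase, had a smaller log2 ratio of 1.88 (1.77 to 1.99), and Cks1b, a CDK subunit that also acts at G1/S, the smallest of the list, 0.86 (0.77 to 0.96).

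Ube2c, the ubiquitin-conjugating enzyme of the anaphase-promoting complex, was among the 10 genes with the largest gain in CPM of all. It had 888 UMIs (49.5 CPM) in P5-2n and 7620 UMIs (414 CPM) in P5-4n, a log2 ratio of 3.06 (2.96 to 3.17). Cdc20, which activates that complex, had 15.3 and 108.5 CPM, a log2 ratio of 2.83 (2.64 to 3.02). Of the 17 genes of the spindle checkpoint and anaphase list, 16 were past 1.5-fold higher, against 3.84% of all genes. The exception was Pttg1, securin, which had 2191 UMIs in P5-2n and 2309 in P5-4n, a log2 ratio of 0.04 (-0.05 to 0.12).

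In the kinetochore list 18 of 22 genes were past 1.5-fold higher, against 3.84% of all genes. They were led by Knstrn, a kinetochore and spindle protein, with 9.32 CPM in P5-2n CMs and 89.8 CPM in P5-4n CMs. Cenpa, the centromeric histone, had 55.3 and 306 CPM. The 4 genes within the fold, Cenph, Cenpk, Cenpq and Oip5, had log2 ratios between 0.28 and 0.50. Cenph, Cenpk and Cenpq encode parts of the constitutive centromere network. So do Cenpi, Cenpl, Cenpm, Cenpn, Cenpp and Cenpw of the same list, which were past the fold higher. All 21 measured genes of the spindle list were past the fold higher, against the same 3.84%. Among them were Hmmr at 2.83 and Aspm, a spindle pole protein, at 2.69 on the log2 scale.

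Cytokinesis genes were higher as well. Of 15 measured genes 12 were past 1.5-fold higher, against 3.84% of all genes, with a median log2 ratio of 1.97. Anln, which encodes anillin, the scaffold of the contractile ring, had 193 UMIs (10.8 CPM) in P5-2n and 932 UMIs (50.7 CPM) in P5-4n. Kif23, a kinesin of the central spindle, had 2.62 and 17.3 CPM, Racgap1, its partner, 21.0 and 82.4 CPM, and Cep55, a protein of abscission at the midbody, 3.07 and 16.9 CPM. The log2 ratios of these 4 genes lay between 1.97 and 2.73. Plk4, the kinase of centriole duplication, had the smallest ratio among the genes past the fold, 0.60 (0.28 to 0.91).

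**Figure D2:**
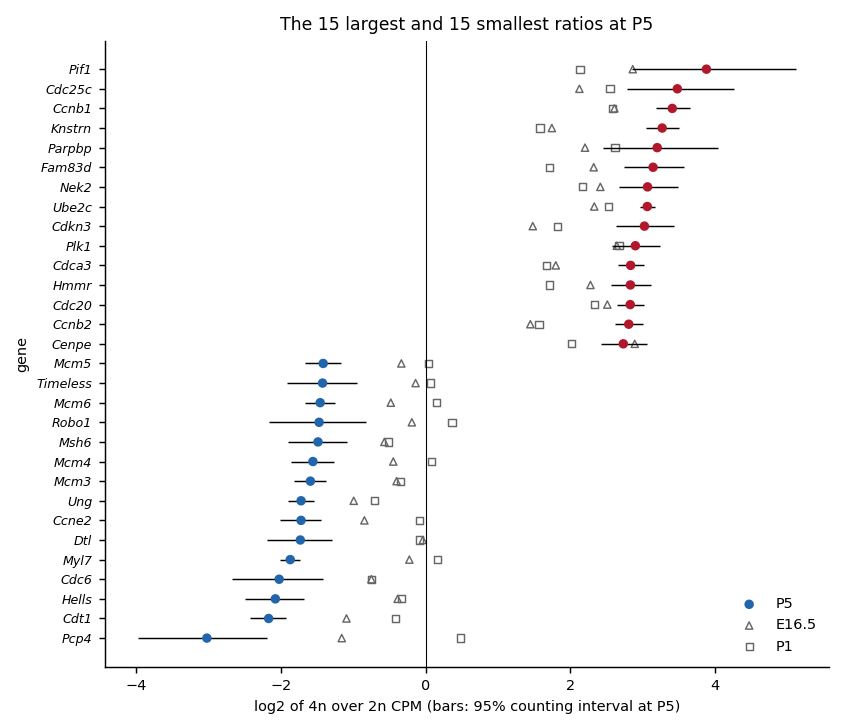
The 15 genes with the largest and the 15 with the smallest ratio at P5 among those with at least 100 UMIs, with the log2 ratio of 4n over 2n CPM on the x axis, filled points and 95% counting intervals for P5, and open triangles and squares for E16.5 and P1. The 15 largest ratios at P5, from 2.73 (Cenpe) to 3.88 (Pif1), had counterparts above 0 at both other ages, whereas the replication genes among the 15 smallest lay nearer to 0 there.

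Genes of origin licensing and firing were lower in P5-4n. Of 17 measured genes 13 were past 1.5-fold lower, against 1.85% of all genes, and 1 was past it higher, with a median log2 ratio of -0.87. Cdt1, the licensing factor, had 728 UMIs (40.6 CPM) in P5-2n and 166 UMIs (9.02 CPM) in P5-4n, 4.50-fold lower in 4n and with a log2 ratio of -2.17 (-2.42 to -1.93). The gene (ENSMUSG00000006585) lies at chr8:122568015-122573554 on the plus strand of GRCm38. Cdc6, which acts with CDT1, had 6.19 and 1.52 CPM. The 6 genes of the MCM2-7 helicase were lower throughout, from Mcm3 with 37.4 CPM in P5-2n CMs and 12.4 CPM in P5-4n CMs, a log2 ratio of -1.59, to Mcm7 with 40.9 and 22.8 CPM, a log2 ratio of -0.84. The gene that was higher, Dbf4, encodes the activator of the CDC7 kinase and had 5.97 CPM in P5-2n CMs and 18.5 CPM in P5-4n CMs.

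Genes of the replication fork and nucleotide supply were lower by less. Of 35 measured genes 15 were past 1.5-fold lower, against 1.85% of all genes, and only Rrm2 was past it higher, against 3.84%. Pcna, the sliding clamp, had 72.7 CPM in P5-2n CMs and 45.0 CPM in P5-4n CMs, Lig1, the ligase of lagging strands, 25.6 and 11.6 CPM, and Timeless, of the fork protection complex, 7.59 and 2.83 CPM. Rrm2, the small subunit of ribonucleotide reductase, had 116.6 CPM in P5-2n CMs and 208 CPM in P5-4n CMs, a log2 ratio of 0.84 (0.76 to 0.91), and Tk1, thymidine kinase, a log2 ratio of 0.50 (0.34 to 0.66). Both replication lists together went from 1833 CPM (1814 to 1853) in P5-2n to 1452 CPM (1434 to 1469) in P5-4n. Among the 15 genes with the smallest ratio were also Hells, a chromatin remodeller, Dtl, which directs the destruction of CDT1, and Ung and Msh6 of DNA repair, with log2 ratios from -2.08 to -1.49.

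The G1/S list showed 2 of 18 measured genes past 1.5-fold lower and none higher, against 1.85% and 3.84% of all genes. These were Ccne2, cyclin E2, with 25.1 CPM in P5-2n CMs and 7.61 CPM in P5-4n CMs, and E2f1 with 32.1 and 14.8 CPM, a log2 ratio of -1.11 (-1.33 to -0.90). Cdk4, the D-type cyclin kinase, had a log2 ratio of -0.38.

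Promoter sequences are shown for the mitotic and replication genes because 85 of 91 mitotic genes were past the fold higher and 28 of 52 replication genes past it lower. They were read from RefSeq promoters on GRCm38.p6, which were matched by symbol for 79 of the 94 mitotic and 44 of the 56 replication genes. The letters searched on both strands in the 250 bases before the start were TTTGAA or TTTAAA (CHR, the cell cycle genes homology region), CCAAT, and TTTCCCGC, TTTGGCGC or TTTCGCGC (E2F). The genes printed are those with the largest ratios among mitotic genes with both CHR and CCAAT letters, and with the smallest ratios among replication genes with E2F letters, in a window of 150 bases outside the annotated gene. Pola1, the third of the replication genes so chosen, had a log2 ratio of -0.58 and was just within the fold. In each sequence, given 5′ to 3′ along the gene, capitals mark the CHR and CCAAT letters of mitotic genes and the E2F and CCAAT letters of replication genes, in either orientation. The windows are chr14:46760391-46760540 (+ strand) for Cdkn3, chr7:122159285-122159434 (+ strand) for Plk1, chr8:22185820-22185969 (- strand) for Ckap2, chr1:128359706-128359855 (- strand) for Mcm6, chr8:75109359-75109508 (+ strand) for Mcm5 and chrX:93632156-93632305 (- strand) for Pola1.
Cdkn3: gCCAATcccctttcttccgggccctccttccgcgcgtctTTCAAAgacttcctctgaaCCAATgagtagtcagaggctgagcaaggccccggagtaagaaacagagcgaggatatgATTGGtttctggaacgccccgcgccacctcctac
Plk1: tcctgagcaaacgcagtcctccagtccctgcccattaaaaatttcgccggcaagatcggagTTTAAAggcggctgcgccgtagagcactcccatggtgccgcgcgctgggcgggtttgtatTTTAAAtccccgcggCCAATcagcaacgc
Ckap2: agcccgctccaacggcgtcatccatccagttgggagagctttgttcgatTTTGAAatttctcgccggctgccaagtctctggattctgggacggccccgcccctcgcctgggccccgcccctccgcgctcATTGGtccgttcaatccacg
Mcm6: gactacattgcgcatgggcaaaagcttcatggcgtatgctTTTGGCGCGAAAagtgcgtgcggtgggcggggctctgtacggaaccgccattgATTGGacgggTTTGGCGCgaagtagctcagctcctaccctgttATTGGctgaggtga
Mcm5: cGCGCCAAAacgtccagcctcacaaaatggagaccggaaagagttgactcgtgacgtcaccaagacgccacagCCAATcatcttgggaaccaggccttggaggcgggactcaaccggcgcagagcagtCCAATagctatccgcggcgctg
Pola1: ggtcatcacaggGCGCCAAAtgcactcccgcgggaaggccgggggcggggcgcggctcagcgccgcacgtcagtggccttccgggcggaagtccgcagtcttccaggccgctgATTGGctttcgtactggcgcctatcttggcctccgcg

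Of 88 promoters of mitotic genes, 37 (42.0%) held the CHR letters, against 25.2% of all 32851 promoters of the same length, 17.4% of the 9274 promoters of genes measured at P5 and 20.8% of the 53 promoters of replication genes. CCAAT was held by 69.3% of the mitotic and 56.6% of the replication promoters, against 33.8% of all and 35.2% of those of genes measured at P5. The E2F letters were held by 8.0% of the mitotic and 18.9% of the replication promoters, against 1.53% of all promoters and 3.13% of those of genes measured at P5. CHR and CCAAT letters occurred together in 35.2% of the mitotic, 11.3% of the replication and 8.78% of all promoters, and in 6.30% of those of genes measured at P5. In Plk1 a TTTAAA stood 29 to 24 bases before the start and a CCAAT 14 to 10 bases before it. In Mcm6 the matches TTTGGCGC and GCGCGAAA overlapped, so that its 3 E2F matches covered 2 separate places. A match of letters is a description and not a measured binding site.

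Genes of chromosome structure followed the mitotic genes in part. Of 21 measured genes of chromosome condensation and the nuclear envelope, 12 were past 1.5-fold higher, against 3.84% of all genes. Among the 12 were Top2a, topoisomerase II alpha, with 39.3 CPM in P5-2n CMs and 118 CPM in P5-4n CMs, and Mki67, the proliferation antigen Ki-67, with 14.7 and 57.6 CPM. Of 12 measured histone genes 8 were past it higher, against the same 3.84%. H2afz, the variant H2A.Z, had 8082 UMIs (451 CPM) in P5-2n and 16072 UMIs (873 CPM) in P5-4n. Replication-dependent histone transcripts mostly lack a poly(A) tail, so that 3′ libraries primed on it sample them poorly.

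Tubulin genes split. Tubb6, Tuba1c and Tubb4b were past 1.5-fold higher, Tubb6 with 22.7 CPM in P5-2n CMs and 77.1 CPM in P5-4n CMs, and Tuba8, a muscle isoform, was past it lower with 21.9 and 13.7 CPM. The other 7 of 11 measured tubulin genes lay within the fold, with Tuba4a at -0.51 and Tubb5 at 0.51 on the log2 scale. Over all genes 3.84% were past the fold higher and 1.85% lower.

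Several inhibitors of cyclin-dependent kinases were higher in P5-4n. Of 17 measured genes of the list of inhibitors and p53 targets, 6 were past 1.5-fold higher and none lower, against 3.84% and 1.85% of all genes. Cdkn2d, p19, had 727 UMIs (40.6 CPM) in P5-2n and 2503 UMIs (136 CPM) in P5-4n, a log2 ratio of 1.75 (1.63 to 1.87), and Cdkn2c, p18, a log2 ratio of 1.55 (1.38 to 1.71). Cdkn1a, p21, had 32.4 and 55.6 CPM, a log2 ratio of 0.78 (0.63 to 0.93), and Cdkn1b, p27, 8.48 and 15.4 CPM. Trp53, which encodes p53 itself, had a log2 ratio of -0.47 (-0.77 to -0.17).

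**Figure D3:**
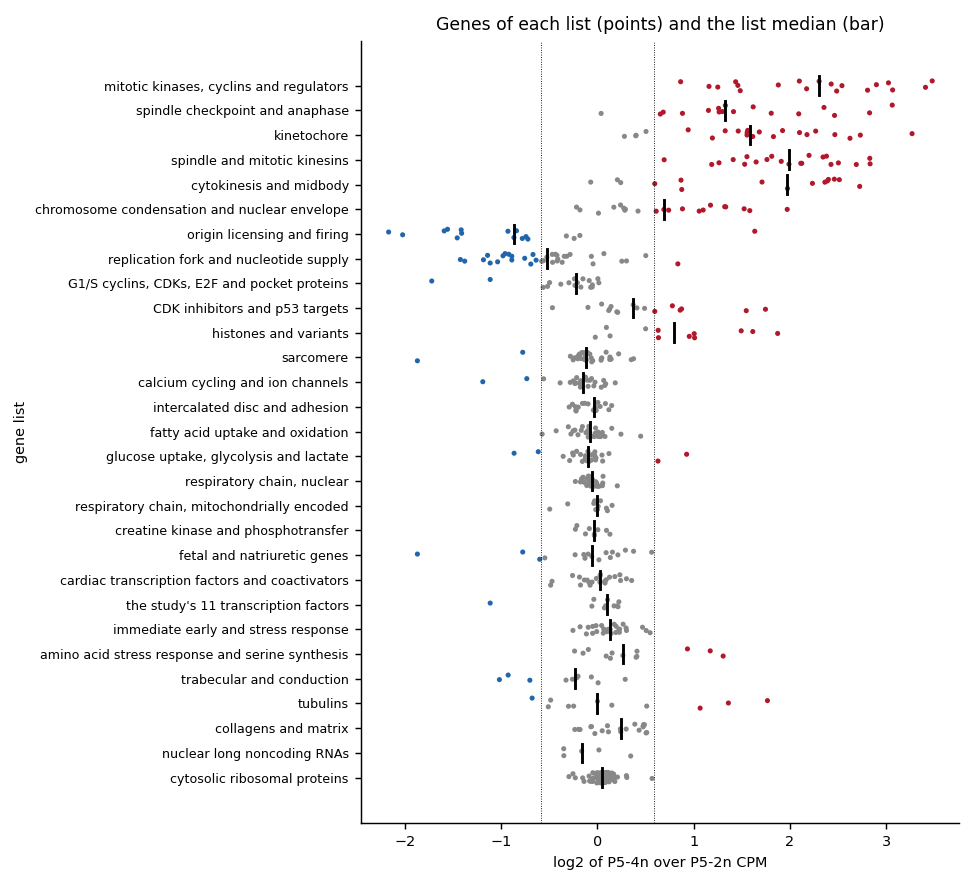
Each row is a gene list and each point a gene of it with at least 100 UMIs at P5, with the log2 ratio of P5-4n over P5-2n CPM on the x axis, the list median as a black bar, and dotted lines at a fold of 1.5. The 5 mitotic lists lie to the right, the lists of licensing and of the fork to the left, and the contractile, metabolic and ribosomal lists around 0.

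The contractile and metabolic genes of CMs differed little. Of 32 measured sarcomere genes none was past 1.5-fold higher and 2 were past it lower, against 3.84% and 1.85% of all genes. Their median log2 ratio was -0.12, against 0.02 over all genes. Most of the largest falls in CPM were those of abundant CM genes at small ratios: Myl3, a ventricular light chain, had 11786 CPM in P5-2n CMs and 10347 CPM in P5-4n CMs, a log2 ratio of -0.19. Myh6, the adult alpha myosin heavy chain, went the other way, with 2511 and 2924 CPM, a log2 ratio of 0.22 (0.20 to 0.24). None of the 31 measured genes of fatty acid oxidation or 39 nuclear and 13 mitochondrially encoded genes of the respiratory chain was past the fold. Nor was any of 23 cardiac transcription factors, 20 genes of the intercalated disc or 79 cytosolic ribosomal protein genes. Over all genes 94.3% were within the fold. Of 28 measured genes of glucose uptake, glycolysis and lactate, Pgk1 and Eno1 were past it higher, Pgk1 with 28.5 and 54.1 CPM. Aldoc and Slc2a1 were past it lower.

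In the list of amino acid stress and serine synthesis, 3 of 13 measured genes were past 1.5-fold higher and none lower, against 3.84% and 1.85% of all genes. Phgdh, the first enzyme of serine synthesis, had 52 UMIs in P5-2n and 132 UMIs in P5-4n, Mthfd2, of mitochondrial one-carbon metabolism, 161 and 316 UMIs, and Pck2, the mitochondrial PEP carboxykinase, 64 and 148 UMIs. Their log2 ratios were 1.31, 0.94 and 1.17. In the CMs that held 0 mitotic UMIs at a depth of 2000 UMIs the summed list was at -0.17 (-0.36 to 0.01). Of its 3 genes with at least 100 UMIs in those CMs, which need not be the 3 named above, 0 were past the fold. Shares over all genes measured there were 0.889% higher and 2.45% lower. Phgdh was at 0.51 in those CMs, a value that rests on part of its 52 and 132 UMIs and is given without an interval. Of the 27 measured immediate early and stress genes none was past the fold, which is near the share of all genes (3.84% higher and 1.85% lower).

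Of the 10 measured genes of the trabecular and conduction list, 3 (Irx5, Id2 and Slit2) were past 1.5-fold lower and none higher, against 1.85% and 3.84% of all genes, with a median log2 ratio of -0.24. The summed list was at -0.23 over all CMs and at 0.01 (-0.08 to 0.10) in the CMs without mitotic UMIs. In the latter 1 of its 4 measured genes was past the fold lower, against 2.45% of all genes measured there, and none higher. Irx5 was at -1.01 in the CMs without mitotic UMIs, against -1.02 over all CMs. The former value rests on part of its 154 and 78 UMIs and is given without an interval. Irx5 need not be 1 of the 4 genes measured there. Some genes known from atrial CMs or Purkinje cells, set together here after their values had been seen, were also lower in P5-4n. Myl7, the atrial regulatory light chain, had 1989 UMIs (111 CPM) in P5-2n and 558 UMIs (30.3 CPM) in P5-4n, a log2 ratio of -1.87 (-2.01 to -1.74). Sln, sarcolipin, an atrial inhibitor of the calcium pump, had 227 and 102 UMIs, Myl4, the atrial essential light chain, 1387 and 831 UMIs, and Pcp4, a calmodulin regulator found in Purkinje cells, 103 and 13 UMIs. These transcripts came from very few CMs. After each CM had been thinned to 2000 UMIs, which left out 446 CMs of P5-2n and 167 CMs of P5-4n with fewer, the 5% of CMs with most Myl7 held 100% of its UMIs on both sides, and the highest CM held 72 in P5-2n and 60 in P5-4n. CMs with at least 3 Myl7 UMIs numbered 37 (0.838%) of P5-2n and 9 (0.246%) of P5-4n. Without them the log2 ratio of Sln was -0.04 and that of Myl4 0.13, whereas that of Pcp4 was -3.03. Nppa, atrial natriuretic peptide, also made in the trabeculae of the ventricle, had 973 CPM in P5-2n CMs and 642 CPM in P5-4n CMs, a log2 ratio of -0.60 (-0.63 to -0.57), and -0.60 without those CMs. Irx5, a transcription factor of the ventricular gradient of repolarisation, had 154 and 78 UMIs, and -1.03 on the log2 scale without them.

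The mitotic UMIs were distributed differently over the CMs of the 2 sides. At 2000 UMIs per CM, the median CM held 1 mitotic UMI in P5-2n and 3 in P5-4n, and the 75th percentiles were 3 and 18. CMs with 20 or more mitotic UMIs numbered 69 (1.74%) of 3967 in P5-2n and 833 (23.9%) of 3487 in P5-4n, where they held 17.0% and 72.0% of the mitotic UMIs. The 5% of CMs with most of them held 34.5% of the mitotic UMIs in P5-2n, against 21.2% in P5-4n. Farther down the ranking the order was the other way, and the 40% of CMs with most mitotic UMIs held 83.4% of them in P5-2n against 89.8% in P5-4n.

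Mean replication UMIs were lower in P5-4n at each level of mitotic UMIs, with levels set after values of these data had been seen. CMs with 0 mitotic UMIs held on average 1.86 replication UMIs in P5-2n and 1.08 in P5-4n, those with 1 to 4 held 2.88 and 1.35, those with 5 to 19 held 9.34 and 4.04, and those with 20 or more held 10.0 and 5.84. Sarcomere UMIs per CM went the other way along the same levels, from 179.9 in P5-2n CMs with 0 mitotic UMIs to 135.9 in those with 20 or more, and from 180.4 to 134.1 in P5-4n. At matched mitotic levels the sarcomere values of P5-2n and P5-4n were within 6 UMIs of each other.

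**Figure D4:**
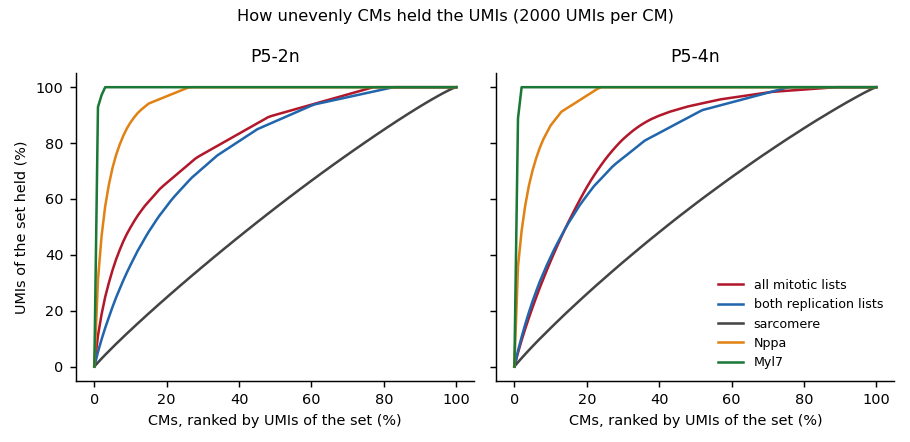
CMs of P5-2n (left) and P5-4n (right), thinned to 2000 UMIs each, are ranked on the x axis by their UMIs of a gene or list, and the y axis gives the percentage of those UMIs held so far. Sarcomere UMIs lie near the diagonal, Myl7 UMIs rise to 100% within the first 5% of CMs on both sides, and the mitotic curve is steeper in P5-2n at first, with 34.5% against 21.2% in the top 5%, but higher in P5-4n at 40% of CMs, with 89.8% against 83.4%.

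The comparison was then limited to the 910 CMs of P5-2n and 389 CMs of P5-4n that held 0 mitotic UMIs after thinning, using all of their UMIs. They are called CMs without mitotic UMIs, but held some among the UMIs that the thinning left out. Over all of their UMIs the summed mitotic lists had a log2 ratio of 0.56 (0.44 to 0.68). This ratio cannot compare 4n with 2n, because the choice of these CMs fixed their thinned UMIs at 0 mitotic UMIs. The chosen CMs of P5-4n were deeper, with a median of 4967 UMIs against 3880 in P5-2n. A larger part of their UMIs was therefore free to be mitotic, which the interval does not take into account. The part of depth in the ratio was not tested. Of 4049 genes outside the mitotic lists with at least 100 UMIs there, 36 (0.889%) were past 1.5-fold higher in 4n and 99 (2.45%) past it lower. Of the 359 genes that were higher over all CMs, 47 had enough UMIs here. Of these, 11 were still past the fold and 32 were on the same side of 0. Of the 173 lower genes 25 had enough UMIs, with 12 still past the fold and all 25 on the same side of 0. Both sets had been chosen over all CMs, of which these CMs are a part. The summed replication lists had a log2 ratio of -0.82 (-0.92 to -0.72), farther from 0 than over all CMs, and 7 of their 12 measured genes were past the fold lower and none higher. Rrm2, higher over all CMs, had a log2 ratio of -0.58 in these CMs, and H2afz one of -0.24.

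In CMs with 0 mitotic UMIs after thinning the largest log2 ratio was 2.29. It was that of Lockd, a noncoding RNA next to Cdkn1b. Cdkn1a, p21, followed at 1.92 (1.46 to 2.40), with 59 UMIs in P5-2n and 122 in P5-4n. Bax, a p53 target of apoptosis, was at 0.87, whereas Cdkn2d was at -0.02. Of the 8 measured genes of the list of inhibitors and p53 targets, 3 were past the fold higher and none lower. Over all genes measured in these CMs the shares were 0.889% and 2.45%. The median log2 ratio of the 8 genes was 0.25. The fibroblast genes Col1a2 and Col3a1, at 0.92 and 0.84, were also among the 10 largest ratios. In these CMs the summed fibroblast markers were at 0.69 (0.52 to 0.85), with 3 of 5 measured genes past the fold higher, against the same 0.889%. The part of these markers in the other ratios was not tested. Acta1, skeletal alpha actin, was at 0.93, against 0.37 over all CMs. The sum of the 13 mitochondrially encoded genes was at 0.12 and that of the sarcomere list at 0.01. The lowest ratio was that of Myl7, at -3.90 (-4.98 to -3.00), with 274 UMIs in P5-2n and 10 UMIs in P5-4n. Over all CMs the UMIs of Myl7 came from very few CMs, which its interval does not take into account. Ung, Mcm2, Rrm1 and Tipin of replication and repair lay between -1.40 and -1.13. Over all CMs Rrm1 was on the other side of 0, at 0.25 (0.15 to 0.35).

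At the other ages, which share no library with P5, the mitotic lists were higher in 4n too. Their summed log2 ratio was 1.71 (1.70 to 1.73) at E16.5, 1.14 (1.11 to 1.17) at P1 and 1.84 (1.83 to 1.86) at P5. At E16.5, 88 of 91 measured mitotic genes were past 1.5-fold higher, against 9.3% of all genes, and at P1 66 of 75, against 9.61%. The replication lists differed between the ages. At E16.5 3 of 54 measured replication genes were past 1.5-fold lower, against 1.04% of all genes, at P1 0 of 45, against 0.29%, and at P5 28 of 52, against 1.85%. Past it higher were 7 of 54 at E16.5, against 9.3%, and 4 of 45 at P1, against 9.61%. At P5 2 of 52 were past it higher, against 3.84%. Their summed log2 ratio was 0.23 (0.21 to 0.25) at E16.5, 0.10 (0.07 to 0.13) at P1 and -0.34 (-0.36 to -0.31) at P5. With 1 library per condition, the difference between ages was not tested.

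Of the 359 genes past the fold higher at P5, 343 had at least 100 UMIs at E16.5. There 237 (69.1%) were past it higher, against 9.3% of all genes. These were 31.7% of the 748 genes past it higher at E16.5 among those measured at P5. At P1 152 of 308 (49.4%) were past it higher, against 9.61% of all genes, and made up 20.7% of 736 such genes. Of the 173 lower genes 15 of 149 were past the fold lower at E16.5 and 4 past it higher, against 1.04% and 9.3% of all genes. At P1 2 of 149 were past it lower and 11 past it higher, against 0.29% and 9.61% of all genes.

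**Figure D5:**
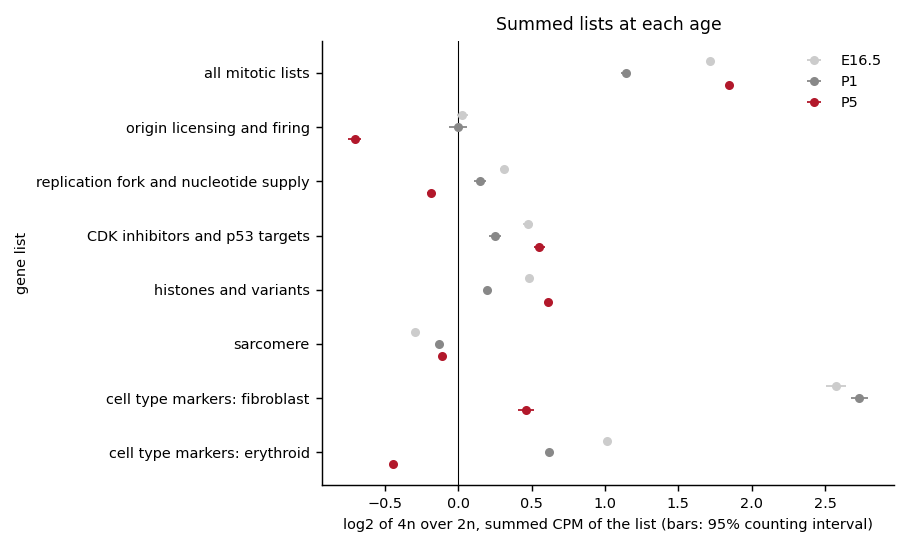
Points give the log2 ratio of 4n over 2n of the summed CPM of 8 lists at E16.5 (light grey), P1 (dark grey) and P5 (red), with bars for the 95% counting interval. The mitotic lists lie right of 0 at every age, both replication lists lie left of 0 at P5, and fibroblast markers are far higher in 4n at E16.5 and P1 than at P5.

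Markers of fibroblasts and endothelial cells had smaller ratios at P5 than at the younger ages, and their part in the results was not tested. The 10 fibroblast markers summed to 285 CPM in P5-2n CMs and 392 CPM in P5-4n CMs, a log2 ratio of 0.46, against 2.57 at E16.5 and 2.73 at P1, and all 8 with at least 100 UMIs at P5 were higher in 4n without passing the fold over all CMs. The 10 endothelial markers summed to 84.0 and 89.6 CPM, the 8 mural markers to 110 and 118 CPM, and the 10 immune markers to 15.5 and 12.3 CPM. The 6 epicardial and 5 glial markers stayed under 10 CPM on both sides. The 7 erythroid genes summed to 2243 CPM in P5-2n CMs and 1649 CPM in P5-4n CMs, a log2 ratio of -0.44, against 1.01 at E16.5 and 0.62 at P1. CMs with at least 3 UMIs of the fibroblast, endothelial, immune, mural, epicardial and glial markers made up 10.7% of the CMs in P5-2n against 19.3% in P5-4n. This cut was made without thinning, and the CMs of P5-4n were deeper, with a median of 4658 UMIs against 3759, so the 2 shares are not matched for depth. Without the CMs past this cut the summed mitotic lists had a log2 ratio of 1.99 and the replication lists one of -0.36.

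Xist, the noncoding RNA of the inactive X chromosome, had 1934 UMIs in P5-2n and 1558 UMIs in P5-4n, a log2 ratio of -0.35 (-0.45 to -0.25). The Y-linked genes Ddx3y, Uty, Kdm5d and Eif2s3y summed to 517 and 588 UMIs, a log2 ratio of 0.15 (-0.03 to 0.32). Transcripts of both kinds were thus found on both sides, and the part of a differing sex ratio of the pools in other results was not tested. Malat1, a nuclear noncoding RNA, had 3566 CPM in P5-2n CMs and 2796 CPM in P5-4n CMs, a log2 ratio of -0.35.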

How the data were processed

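Left ventricular CMs had been sorted into 2n and 4n at E16.5, P1 and P5, with 1 library of the 10x Genomics 3′ kit for each condition. Reads had been aligned by STAR to GRCm38 and counted in Cell Ranger, and the matrices deposited by the authors hold raw counts of UMIs for 27998 genes in each called cell, without normalization. The whole-series gene list and the table of the authors' own comparison (genes with fold changes and p-values) were not used. Of the genes, 27645 had a position in GENCODE M21 on the same build, and 56 symbols stand for more than 1 gene.

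UMIs of all CMs of a library were added up and scaled to CPM. The log2 ratio carries no pseudocount, and its interval is the exact (Clopper-Pearson) 95% interval for the share of a gene's UMIs that fell in 4n. Sums of lists have exact Poisson intervals. These cover counting error only, since pooled sorts in 1 library give no replicate. Ratios count as past the fold at 1.5 among genes with at least 100 UMIs. Doublets were not called, and CMs above the 95th percentile of UMIs were left out in an alternative. CMs were thinned to 2000 UMIs with a fixed seed. The members and lists were chosen with earlier results of these data known. Genes named are those of the lists, the 15 largest and 15 smallest ratios, the 10 largest gains and losses in CPM, Xist and 4 Y-linked genes, and the 10 largest and 10 smallest ratios in CMs without mitotic UMIs. Alternatives were other CM filters, scalings, minima and folds. Ratios and thinning were tested on simulated data. Python with numpy, scipy, pandas and matplotlib was used.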

Additional observations from a re-analysis of the deposited data

Results flagged for a closer look

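Some results at P5 lay on the other side of 0 from the same comparison at a younger age, with counting intervals that left out 0 at both. None of these differences between ages was tested, since each condition has 1 library. The summed replication lists had a log2 ratio of 4n over 2n of -0.34 at P5, against 0.23 at E16.5 and 0.10 at P1. Myl7 was at -1.87 at P5 and 0.16 at P1, and Sln at -1.19 and 0.71. At P5 the UMIs of both genes came from very few CMs, which the counting intervals do not take into account. Without the CMs with 3 or more Myl7 UMIs, Sln was at -0.04 at P5. Malat1 was at -0.35 at P5 and 0.50 at E16.5. Xist was at -0.35 at P5, against 0.60 at E16.5 and 0.67 at P1. Myh6 was at 0.22 at P5, against -0.26 at E16.5 and -0.16 at P1. Phgdh was at 1.31 at P5 and -0.24 at P1, and Pgk1 at 0.93 at P5 and -0.24 at E16.5. The summed erythroid genes were at -0.44 at P5, against 1.01 at E16.5 and 0.62 at P1. Fibroblast markers also differed between 4n and 2n, at 2.57 at E16.5, 2.73 at P1 and 0.46 at P5. Their part in the differences was not tested.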

How the results depend on the processing

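No paired analysis was possible because each condition has 1 library. The 359 higher and 173 lower genes became 36 and 99 in CMs without mitotic UMIs, 715 and 518 at 20 UMIs, 147 and 49 at 500 UMIs, 2097 and 2107 with any UMI, 175 and 38 at 2-fold, and 202 and 48 where the interval lay wholly past the fold. These settings test other numbers of genes or ask for more. Over the remaining settings the higher genes lay between 296, with CMs thinned to 2000 UMIs, and 420, as a mean over CMs. The lower genes lay between 125, with CMs thinned to 2000 UMIs, and 215, as a mean over CMs. The summed mitotic log2 ratio was 1.82 without the 50 most abundant genes in the total, 1.945 as a mean over CMs, 1.953 at 2000 UMIs, 1.99 without CMs with other cell types' markers and 1.94 without CMs above the 95th percentile of UMIs. The summed replication ratio was -0.36 without the 50 genes in the total, -0.23 as a mean over CMs, -0.28 at 2000 UMIs, -0.29 without the CMs above the 95th percentile and -0.82 in CMs without mitotic UMIs. Of 300 values of 28 single genes, 4 changed sign: in CMs without mitotic UMIs Cdkn2d was at -0.016, H2afz at -0.24 and Rrm2 at -0.58, and without CMs with 3 or more Myl7 UMIs, a setting chosen after seeing the data, Myl4 was at 0.13. The cause was not tested. Depth limits genes under 100 UMIs, and CPM hides any change in RNA per CM.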
